A study of Cocos nucifera and Zingiber officinale with 11 samples.

Results

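Exosome-like nanoparticles (ELNs) are vesicle-sized particles pelleted from plant juice, and the ones described here came from fruit of coconut (Cocos nucifera), a palm and therefore a monocot. Their miRNAs were taken as every name with a value above 0 in the coconut column, which gave 38 miRNAs of the 418 listed over the whole series. The series holds small RNA libraries from ELNs of 11 edible plants, 1 library each and with no replicates, so no test between plants could be made and all plants are compared by their values. The other 10 plants are ginger (the only other monocot), the fruits tomato, pear, orange, kiwifruit, Hami melon, grapefruit and blueberry, and the legumes soybean and pea, the last of which carries the name lima bean in another of its labels. All are untreated plant material. Particles were pelleted in the same way throughout, by centrifugation steps of growing speed, but juice was squeezed by hand from 5 plants and obtained by grinding in buffer from 5 others. How juice was taken from the coconut is not given in the sources used here, nor is the part of the fruit, so flesh and coconut water cannot be told apart. Levels are in RPM, the reads of a miRNA scaled to a fixed read total per library, and a share is the percent of the summed miRNA level of a library.

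Plant miRNAs are short RNAs, mostly of 20 to 22 nt, that guide Argonaute proteins to messenger RNAs and lead to their cleavage or reduced translation. Many families are shared by all flowering plants and act on regulators of leaf, flower and fruit development, and others act on disease resistance genes or on silencing proteins. A name such as gma-MIR-167g carries the code of the species whose reference sequence was matched, here soybean, and not that of the plant studied. The arm, 5p or 3p, says which side of the hairpin precursor a sequence comes from. Roles given below are those of the family in model plants, and a listed arm need not be the active one.

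The sequences that lead the coconut list are shown first, as the most abundant read listed for each name, from 5′ to 3′ and with T for U. Capitals mark bases 2 to 8, the seed by which an miRNA first pairs with its target.
aly-MIR-166h-3p: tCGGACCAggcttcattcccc
gma-MIR-167g: tGAAGCTGccagcatgatctga
bra-MIR-168c-5p: tCGCTTGGtgcaggtcgggac
mtr-MIR-171e-3p: cGATTGAGccgcgctaatatc
osa-MIR-2118n: tTCCCGATgcctcccattccta
mtr-MIR-156a: tGACAGAAgagagagagcac
bdi-MIR-162: tCGATAAAcctctgcatccgg
mtr-MIR-319d-3p: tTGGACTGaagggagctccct
Among the 38 members 3 pairs shared a seed, mtr-MIR-156a with aly-MIR-156e-5p, bra-MIR-168c-5p with osa-MIR-168a-5p, and bdi-MIR-162 with mtr-MIR-162. Every other member had a seed of its own.

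A second set is shown because such sequences look like parts of tRNA or rRNA, and the names they carry are called fragment-like here. Capitals mark the last 3 bases, which in mature tRNA are CCA.
bdi-MIR-5054: ccccacggtgggcgCCA
ath-MIR-8175: ccccggcaacggcgCCA
osa-MIR-5072: ccccagcggagtcgCCA
ppt-MIR-894: tcgtttcacgtcgggttcaCCA
ptc-MIR-6478: ccgaccttagctcAGT
cpa-MIR-8155: cgaaacctggctctgatACC
Of these 6 members 4 end in CCA. In the whole list 6 members did, the other two being vvi-MIR-171h and ppt-MIR-1029, and they held 33.0% of the coconut level, against 20.3% in ginger and 0.249% to 48.3% (median 1.93%) in the 9 other plants.

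Few coconut reads were assigned to miRNAs. Read counts, recovered from the RPM values, came to 4541 miRNA reads among the 1545124 reads by which RPM was scaled, or 0.294% (95% Wilson interval 0.285–0.303), against 7.14% in ginger and 2.88% (tomato) to 53.3% (soybean) in the 9 other plants. This total is the one implied by the RPM values and not the number of reads sequenced, and which reads it covers is not given in the sources used here. By this total coconut was the median of the 11 libraries, and its summed miRNA level was 2939 RPM. Intervals cover counting error only and treat reads as independent. Reads copied by PCR are not independent molecules, so the intervals can be too narrow. The most abundant member, bdi-MIR-5054, had 1316 reads and the least abundant, ppt-MIR-1029, had 5 reads, with a median of 27.5 reads. In all, 11 members had more than 100 reads and 8 had 10 reads or fewer. The 8 most abundant members held 74.4% of the level, while the 20 least abundant held 6.17%, on 280 reads. For 13 of the 36 members listed elsewhere, coconut had the lowest RPM of all libraries that list the miRNA. Shares and RPM can point in opposite directions at this low miRNA content, and both are given where they do.

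**Figure D1:**
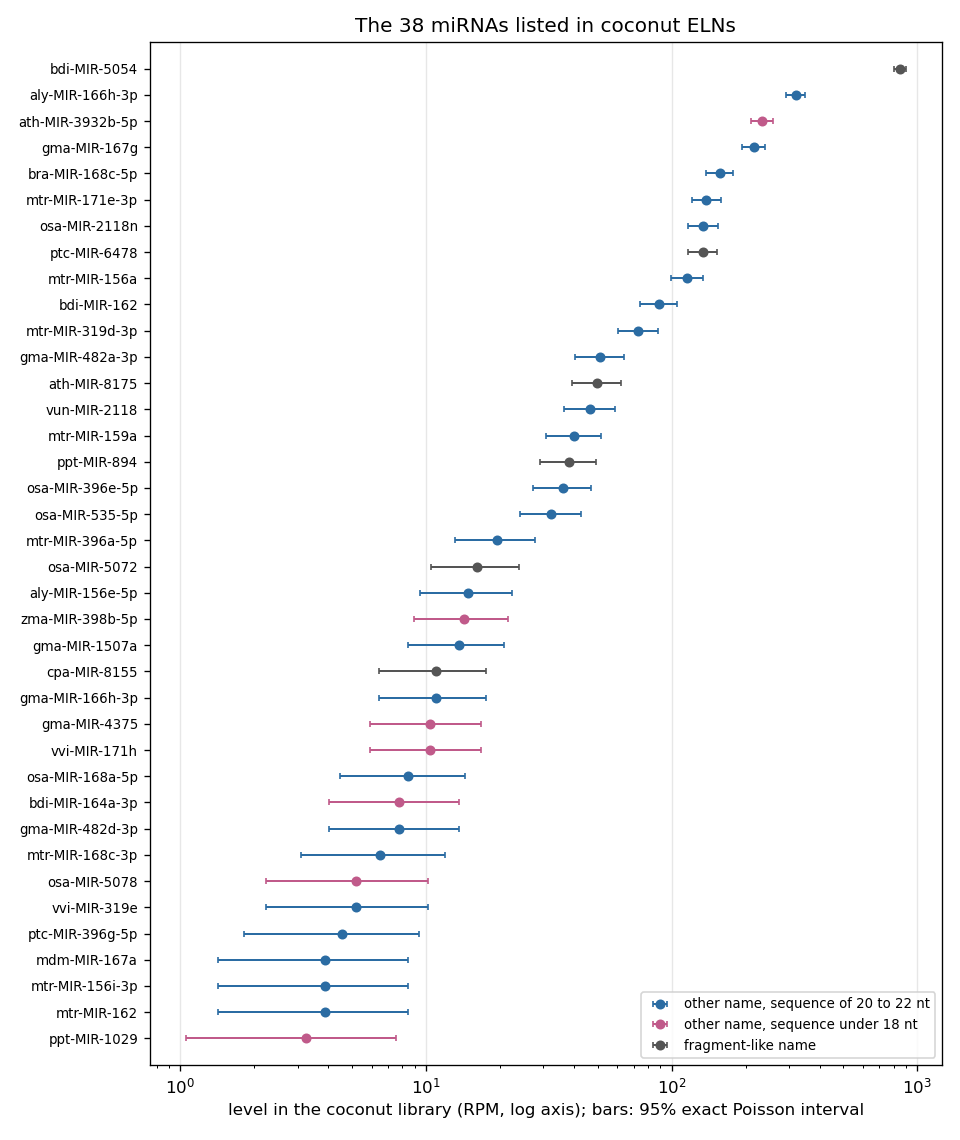
Level of each of the 38 coconut miRNAs in RPM on a log axis, with 95% exact Poisson intervals from the read counts. The point for bdi-MIR-5054 stands at 852 RPM, well apart from aly-MIR-166h-3p at 320 RPM, and the intervals widen towards ppt-MIR-1029 at 3.24 RPM.

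By family number the 38 members made 25 families, of which 15 had a single member in coconut. The largest shares after MIR-5054 were those of MIR-166 (11.3%), MIR-3932 (7.95%), MIR-167 (7.49%), MIR-2118 (6.17%), MIR-168 (5.84%), MIR-171 (5.06%), MIR-156 (4.58%) and MIR-6478 (4.56%). For MIR-167, MIR-168, MIR-171, MIR-3932 and MIR-5078 the coconut share was the highest of the 11 libraries, while in RPM none of these families was highest in coconut. For MIR-171 coconut had 149 RPM against 1628 RPM in soybean, which alone was higher. The arm was 3p for 9 members with 21.1% of the level, 5p for 9 members with 17.7%, and not given in the name for 20 members with 61.2%.

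**Figure D2:**
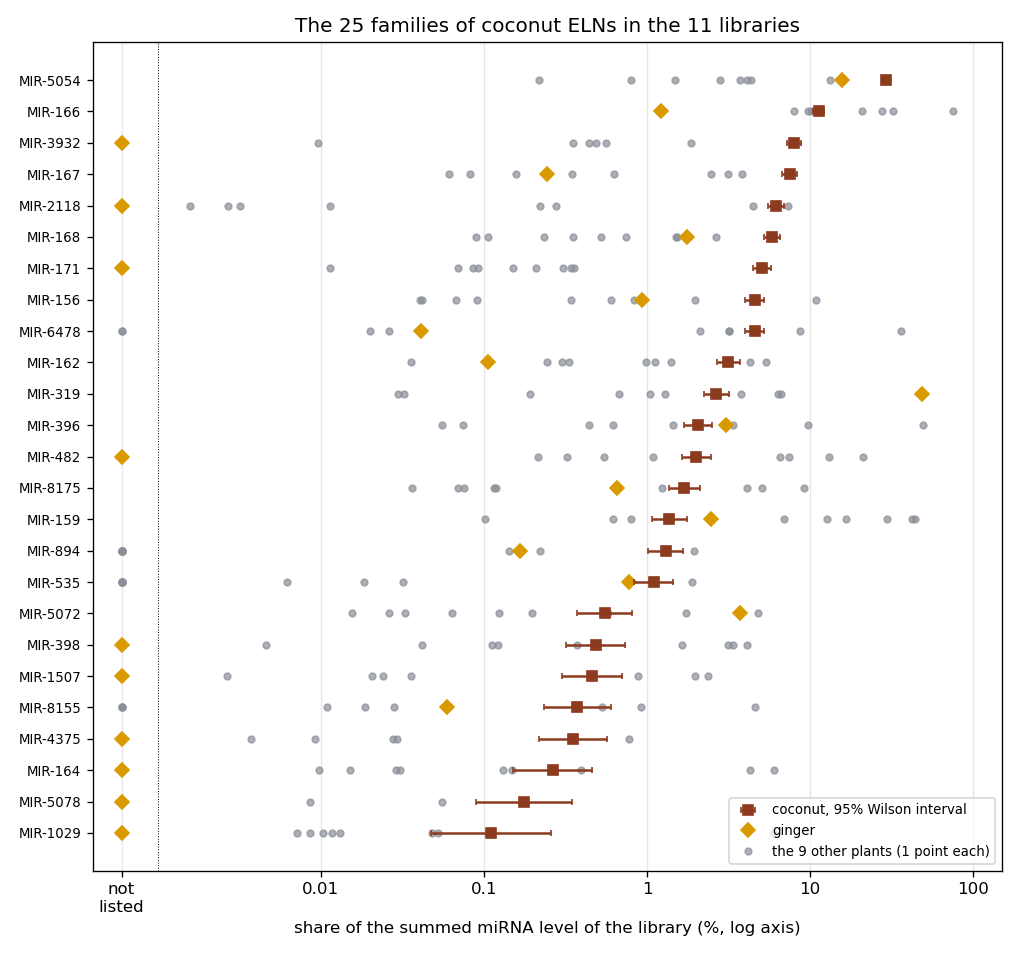
Share of the summed miRNA level for each of the 25 coconut families on a log axis, with squares and 95% Wilson intervals for coconut, diamonds for ginger and 1 grey point for each of the 9 other plants. Coconut lies to the right of all other points for MIR-167 (7.49%), MIR-168 (5.84%), MIR-171 (5.06%), MIR-3932 (7.95%) and MIR-5078 (0.176%), and points left of the dotted line are libraries that list no member.

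The MIR-166 family, which acts on HD-ZIP III genes for leaf polarity and vascular growth, held 11.3% of the coconut level (10.4–12.2), against 1.22% in ginger and 7.91% to 75.3% (median 11.2%) in the 9 other plants. Nearly all of it was aly-MIR-166h-3p, with 495 reads and 10.9% (10.03–11.8). Its share elsewhere was 0.383% in grapefruit at the lowest and 48.4% in blueberry at the highest, with a median of 7.50% over the 10 libraries. In RPM the coconut value, 320, was the lowest of the 11. The offset form gma-MIR-166h-3p, which starts earlier on the precursor, had 17 reads (0.374%) in coconut and up to 26.5% in blueberry, and ginger did not list it. So coconut held the MIR-166 family at a share inside the range of the dicots and above that of ginger, though in RPM ginger was higher, at 869 RPM.

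The MIR-167 family acts on auxin response factors that control flower and fruit growth. In coconut it was almost wholly gma-MIR-167g, with 334 reads, 216 RPM (194–241) and 7.36% of the level (6.63–8.15). No other library listed this name or a sequence identical to it. The family as a whole held 7.49% in coconut, against 0.242% in ginger and 0.0611% to 3.80% in the 9 other plants, but in RPM soybean reached 20272 and coconut, at 220, ranked sixth. Other plants gave 5p sequences of the same start and another 3′ end, as the ginger form listed under ath-MIR-167d shows. The capital marks the base that differs, G22A counted from 1 at the 5′ end.
ginger ath-MIR-167d: tgaagctgccagcatgatctgG
coconut gma-MIR-167g: tgaagctgccagcatgatctgA
Names listed with the TGA ending held 334 of 334 MIR-167 5p reads in coconut and 0 of 41 in ginger. None of the 9 other plants listed this ending. Here and below, all reads of a name are counted under its most abundant sequence, and the ends of single reads were not known. The remaining coconut member of the family, mdm-MIR-167a, is a sequence of the other arm with 6 reads (3.88 RPM, 1.43–8.45).

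MIR-168, which acts on ARGONAUTE1, and MIR-162, which acts on DICER-LIKE1, together held 8.98% of the coconut level (8.19–9.85), against 1.87% in ginger and 0.349% (soybean) to 6.88% (kiwifruit) in the 9 other plants, whereas in RPM coconut was the lowest of the 11. With MIR-403, which acts on ARGONAUTE2 and which neither coconut nor ginger lists, kiwifruit reached 9.25%, above coconut. For MIR-162 the 2 coconut members differ by G20A.
bdi-MIR-162: tcgataaacctctgcatccGg
mtr-MIR-162: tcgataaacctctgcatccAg
bdi-MIR-162, named for the grass Brachypodium, had 137 reads and 88.7 RPM (74.4–105) in coconut, and mtr-MIR-162 had 6 reads and 3.88 RPM. The name listed with the CCGG form thus held 137 of 143 MIR-162 reads in coconut (95.8%, 91.1–98.1) and 18 of 18 in ginger. It held 8 of 20319 in kiwifruit and 0 in the 8 other plants. By listed sequence both monocots had mainly this form and the dicots almost only the other one.

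The MIR-168 family had 3 coconut members. bra-MIR-168c-5p had 242 reads and 156.6 RPM (137.5–178), osa-MIR-168a-5p had 13 reads, and mtr-MIR-168c-3p, the opposite arm, had 10 reads. The first differs from osa-MIR-168a-5p by A14G, read from the rice-type form to the other. All 255 coconut reads of the 5p arm fell under names listed with a final C. This separates bra-MIR-168c-5p by A21C from the sequence that kiwifruit lists.
osa-MIR-168a-5p: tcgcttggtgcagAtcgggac
bra-MIR-168c-5p: tcgcttggtgcagGtcgggac
kiwifruit mtr-MIR-168c-5p: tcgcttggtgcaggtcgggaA
Names listed with the final C held 15 of 289 MIR-168 5p reads in ginger. The other 274 reads there fell under a name listed with a 20 nt form that stops before that base. Tomato gave 1587 of 1587, blueberry 34 reads (8.70%) and kiwifruit 6 of 4555. So this ending did not follow the monocots, since tomato listed no other one for this arm.

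MIR-396, which acts on growth-regulating factors, had 3 members of 2 kinds in coconut. osa-MIR-396e-5p, the form with an extra G known from grasses, had 56 reads and 36.2 RPM (27.4–47.1). The form without that base was listed as mtr-MIR-396a-5p, with 30 reads, and as ptc-MIR-396g-5p, with 7 reads, which differ by A7G. The main form of each kind is shown with its seed in capitals, which the extra base and the shifted start change.
osa-MIR-396e-5p: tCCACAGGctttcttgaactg
mtr-MIR-396a-5p: tTCCACAGctttcttgaactt
The name listed with the extra-G form held 56 of 93 MIR-396 5p reads in coconut (60.2%) and 189 of 497 in ginger (38.03%). It held 10 of 1146 in blueberry, 14 of 3158 in pear and 0 in the 7 other plants. The family as a whole was low in coconut, at 2.05% (1.67–2.50), against 3.06% in ginger and up to 49.4% in kiwifruit. These 4 comparisons of forms were chosen after the values had been seen.

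**Figure D3:**
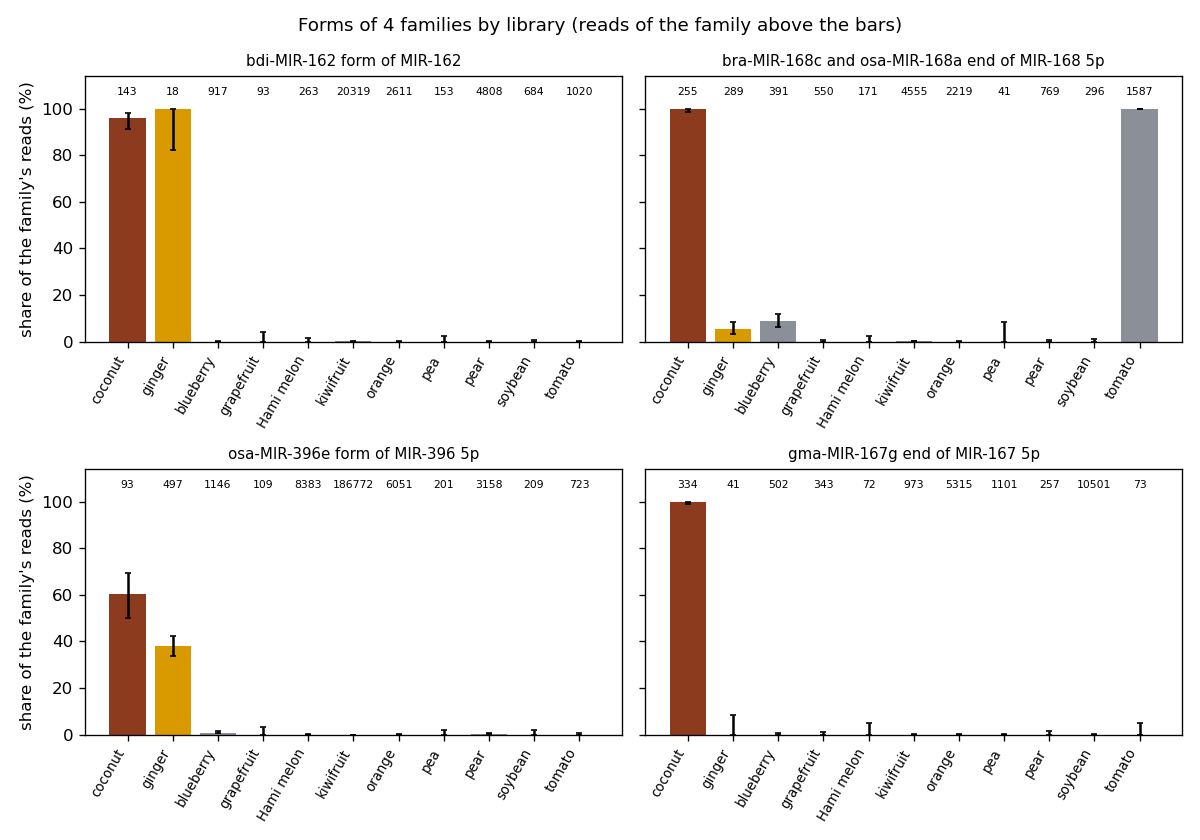
Share of the reads of a family that fall under names listed with the named form or 3′ end in each library. Bars have 95% Wilson intervals and the number of reads of the family above them. The ends of single reads were not known. The bdi-MIR-162 form fills 95.8% in coconut and the whole of the 18 ginger reads, the osa-MIR-396e form 60.2% in coconut and 38.03% in ginger, the MIR-168 end is shared with tomato, and the gma-MIR-167g end is found in coconut alone.

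The MIR-482 and MIR-2118 superfamily, which acts on disease resistance genes of the NBS-LRR type and can trigger secondary small RNAs, had 4 members and 8.17% of the coconut level (7.41–9.002). Ginger listed none, Hami melon listed none either, and the highest share among the 9 other plants was 21.1%, in orange, with a median of 1.08%. osa-MIR-2118n had 208 reads, 135 RPM (117–154) and 4.58%, and was listed in coconut alone. vun-MIR-2118 had 72 reads and 46.6 RPM in coconut and up to 7.36% of the level in pea. The coconut sequence under that name differs from the soybean one by T9G and A12T, and from osa-MIR-2118n by C3G alone.
osa-MIR-2118n: ttCccgatgcctcccattccta
coconut vun-MIR-2118: ttGccgatgcctcccattccta
soybean vun-MIR-2118: ttgccgatTccAcccattccta
The coconut sequence listed under vun-MIR-2118 thus lay nearer to the rice reference than to the cowpea reference it is named for. gma-MIR-482a-3p had 79 reads and 51.1 RPM (40.5–63.7), again with a sequence apart from that of soybean, by T9C and G12A. gma-MIR-482d-3p had 12 reads with a sequence that 6 other libraries also list, and gma-MIR-1507a, of another family that acts on resistance genes, had 21 reads with a sequence found in 7 other libraries. The 3 most abundant members here, osa-MIR-2118n, gma-MIR-482a-3p and vun-MIR-2118, had no identical sequence in any other library.

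The MIR-171 family, which acts on GRAS-domain regulators of meristems, held 5.06% of the coconut level (4.46–5.74), and ginger listed none. In the 9 other plants it reached at most 0.354%, in orange. mtr-MIR-171e-3p carried it, with 214 reads and 138.5 RPM (121–158), and its coconut sequence differs from the reference by A1C and C15T. Tomato is the only other library with this name, at 33.7 RPM and with a 15 nt sequence. vvi-MIR-171h had 16 reads and a listed sequence of 16 nt that ends in CCA.

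Regulators of squamosa promoter-binding, MYB and TCP genes, which time the juvenile phase and flowering and shape leaves and anthers, held 9.71% in coconut with 7 members, against 52.5% in ginger with 11. mtr-MIR-156a had 179 reads, 116 RPM (99.5–134) and 3.94%, and aly-MIR-156e-5p, which differs from it by T14A read from MIR-156e to MIR-156a, had 23 reads. The coconut MIR-156a sequence has 20 nt, while soybean lists a 21 nt form with an extra T at the 5′ end. mtr-MIR-156i-3p, the opposite arm, had 6 reads. mtr-MIR-319d-3p had 113 reads and 2.49% in coconut against 47.1% in ginger, the highest of the 11, and vvi-MIR-319e had 8 reads. mtr-MIR-159a, the MYB regulator, had 62 reads and 1.37% in coconut against 1.57% in ginger and 44.0% in Hami melon. osa-MIR-535-5p, related in sequence to MIR-156, had 50 reads and 1.10%, the highest share of the libraries that list this name, while in RPM coconut was in place 3. MIR-319 was lower in coconut than in ginger both by share and by RPM, and MIR-159 in coconut lay among the lower libraries on both scales.

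Fragment-like names gave 6 members and 37.5% of the coconut level (36.1–38.9), close to the 36.8% of 8 names in ginger, against 1.15% to 87.6% (median 10.2%) in the 9 other plants. bdi-MIR-5054 alone had 852 RPM (806–899) and 29.0% (27.7–30.3), against 15.7% in ginger and 29.7% in grapefruit, which alone was higher by share. In RPM 8 libraries were above coconut for this name. ptc-MIR-6478 had 207 reads (4.56%), ath-MIR-8175 77 reads, ppt-MIR-894 59 reads, osa-MIR-5072 25 reads and cpa-MIR-8155 17 reads. The coconut MIR-5054 sequence differs from its reference by C11G. Whether these reads come from miRNA precursors or from other RNAs was not tested, since no genome was used.

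Sequence lengths fell into 2 groups with nothing between them. Names with 20 to 22 nt numbered 27 and held 54.5% of the coconut level (53.1–56.0), against 62.9% in ginger, and those under 18 nt numbered 11 and held 45.5% (44.0–46.9), against 20.4% in ginger and 0.465% to 44.2% in the 9 other plants. No coconut name had 18 or 19 nt, where ginger held 16.7%. Fragment-like names made up 4 of the 11 short members and 35.8% of the level. Without the fragment-like names the share under 18 nt was 15.5% (14.2–16.9) in coconut and 0.150% in ginger, with 36.5% in tomato and 0.125% to 4.87% in the 8 other plants. So coconut and tomato kept a higher short share also outside that list. In coconut it rests mostly on 1 name, ath-MIR-3932b-5p, with 361 of the 440 reads under these names of under 18 nt.

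**Figure D4:**
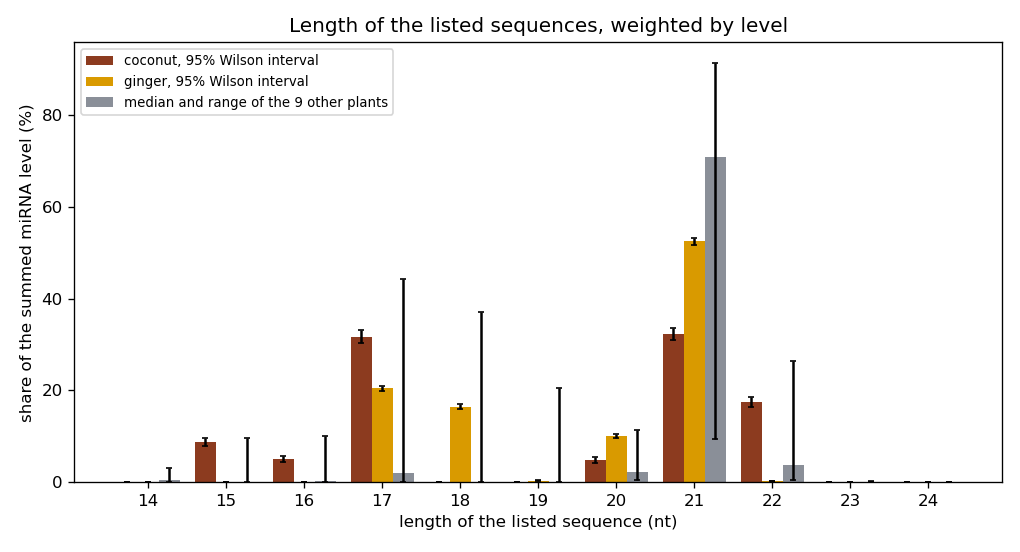
Share of the summed miRNA level at each length of the listed sequence for coconut, ginger (both with 95% Wilson intervals) and the median and range of the 9 other plants. Coconut has peaks at 17 nt (31.7%) and 21 nt (32.3%) and a further 17.4% at 22 nt, with nothing at 18 or 19 nt.

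The 7 short members outside the fragment-like list were ath-MIR-3932b-5p, zma-MIR-398b-5p, gma-MIR-4375, vvi-MIR-171h, bdi-MIR-164a-3p, osa-MIR-5078 and ppt-MIR-1029. ath-MIR-3932b-5p led them with 361 reads, 234 RPM (210–259) and 7.95%, the highest share of the 11, while in RPM coconut came after pea (2470 RPM) and soybean (1873 RPM). Under this name blueberry, orange, pea, pear and soybean listed the same 14 nt sequence. The coconut sequence differed from that of pea at both ends and the tomato sequence at the 5′ end alone, with capitals on the seed.
coconut: tGCTCGAGctgctct
pea: cTGCTCGAgctgct
tomato: gGACTGCTcgagctgct
zma-MIR-398b-5p, from the family that acts on copper proteins, had 22 reads, and bdi-MIR-164a-3p, from the NAC regulator family, had 12 reads. Compared without gaps, gma-MIR-4375 with 16 reads and osa-MIR-5078 with 8 reads each differ from their reference at 5 positions, more than any other member. Where a sequence lacks a base of its reference, such a comparison can count several mismatches, and gaps were not tested. In all, 19 members were identical to their reference and held 40.6% of the coconut level, against 65.7% in ginger and a median of 82.4% (11.1–91.6%) in the 9 other plants. Another 5 differed in length alone, and 14 with 47.3% of the level carried mismatches.

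The first base was T in 24 members with 57.0% of the coconut level and C in 11 members with 42.2%, against 63.2% for T and 20.3% for C in ginger. T at this place is typical of miRNAs loaded into ARGONAUTE1. Of the members 15 were FMs (frequent miRNAs, in 8 to 11 libraries) with 53.2% of the level, 12 were MPMs (moderately present, 4 to 7) with 15.4%, and 11 were RMs (rare, 1 to 3) with 31.4%. The frequent ones included 7 listed in all 11 libraries, among them bdi-MIR-5054, aly-MIR-166h-3p and mtr-MIR-159a. In all, 10 members with 32.5% of the level had no identical sequence in another library.

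Names with a monocot species code numbered 10 in coconut and held 40.7% of its level (39.2–42.1), against 21.8% in ginger and 1.18% to 38.6% in the 9 other plants. By number they were 26.3% of the coconut names, against 28.1% in ginger and 12.5% (pea) to 30% (Hami melon) in the 9 other plants. Outside the fragment-like names these values were 21.1%, 21.9% and 7.69% (grapefruit) to 25% (Hami melon). So only the level, and not the number of names, was highest in coconut. Much of that level is bdi-MIR-5054. The 8 that are not fragment-like held 11.1% (10.3–12.1), against 2.36% for 7 names in ginger and at most 4.67%, in tomato, in the 9 other plants, and in RPM coconut ranked ninth. No coconut reference was used here, so the label of the library could not be checked against the species itself.

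Coconut and ginger shared 15 names, 39.5% of the coconut list and 46.9% of the ginger list, and 10 listed sequences. Blueberry shared the most, 26 (68.4% of the coconut list), and Hami melon the fewest, 12. These counts depend on list length, which was 32 names in ginger and 87 in blueberry. As a percent of the other list ginger was the highest, against 29.9% for blueberry and 15% for Hami melon. That percent also depends on list length, and the ginger list was the shortest. Outside the fragment-like names ginger and Hami melon each shared 9 names, the fewest, and blueberry 21. The names shared with ginger held 58.6% of the coconut level and 73.2% of the ginger level. Of the 15, 6 were at least 4-fold higher by share in coconut (40%) and 2 at least 4-fold lower (13.3%), with 7 within 4-fold. The 6 were ptc-MIR-6478 (110-fold, exact interval 52.5–278), bdi-MIR-162 (28.4-fold, 17.3–49.3), aly-MIR-166h-3p (8.95-fold, 7.60–10.6), ppt-MIR-894 (7.85-fold, 4.93–12.8), cpa-MIR-8155 (6.34-fold, 2.74–15.5) and mtr-MIR-168c-3p (4.14-fold, 1.51–11.5). The intervals of cpa-MIR-8155 and mtr-MIR-168c-3p reach below 4-fold. By RPM only ptc-MIR-6478 and bdi-MIR-162 remained above 1. The 2 lower by share were mtr-MIR-319d-3p (0.0529, 0.0435–0.0636) and osa-MIR-5072 (0.148). By RPM 10 of the 15 were at least 4-fold lower in coconut (66.7%). The largest ratio, for ptc-MIR-6478, rests on 7 ginger reads. Some ratios are between unlike sequences under 1 name. ptc-MIR-6478 has 16 nt in coconut, a length that ginger does not list. ppt-MIR-894 has 22 nt in coconut and 17 nt in ginger, and no other library lists the coconut cpa-MIR-8155 sequence.

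**Figure D5:**
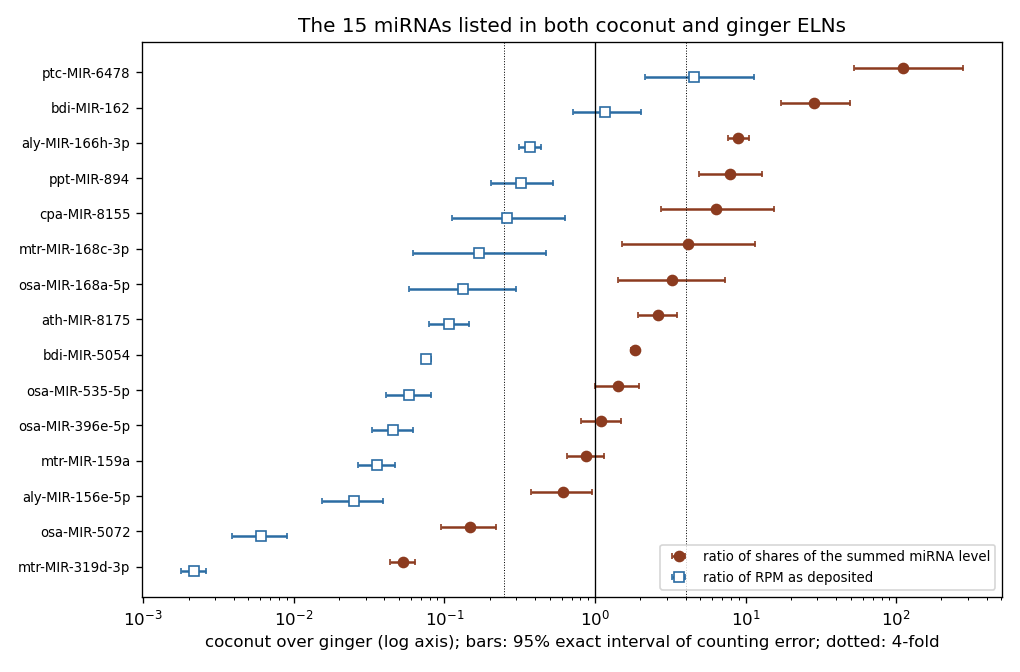
Coconut over ginger for the 15 miRNAs listed in both, as ratios of shares (filled) and of RPM (open) on a log axis with 95% exact intervals of counting error. ptc-MIR-6478 at 110 and bdi-MIR-162 at 28.4 lie farthest to the right by share, mtr-MIR-319d-3p at 0.0529 farthest to the left, and all 15 ratios are lower in RPM.

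The 23 coconut members that ginger does not list held 41.4% of the coconut level, led by ath-MIR-3932b-5p and gma-MIR-167g, with osa-MIR-2118n and mtr-MIR-171e-3p after bra-MIR-168c-5p. Conversely 17 ginger names held 26.8% of the ginger level and were not listed in coconut. A name with 5 reads makes 0.110% of the coconut level, so rarer miRNAs could not be detected at this depth. Above that share in 6 of the 9 other plants, yet not listed in coconut, were 5 names. For mtr-MIR-166g-5p, mtr-MIR-168c-5p and ath-MIR-167d coconut lists the family under other names. The fragment-like peu-MIR-2916, with a median of 1.36% over the 9 plants and 4.19% in ginger, was listed in all 10 other libraries, and osa-MIR-5077, also fragment-like, had a median of 0.173%. Coconut listed no member of these 2 families, nor of MIR-403, which was above 0.110% in 5 of the 9 plants. The names outside the coconut families were chosen after their values were seen. Coconut and ginger listed no member of the groups that act on NF-Y and AP2 genes or on tasiRNA and auxin receptor genes, while all 9 other plants listed some, at medians of 0.169% and 0.174%. For the first group blueberry, grapefruit, pear and tomato lay below 0.110%, and for the second pea, pear, soybean and tomato. Such shares could not be detected at the coconut depth. At a common floor of 0.110% coconut had 38 names, ginger 21 and the 9 other plants 23 (grapefruit) to 42 (pear).

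The coconut share was the highest of the 11 libraries for 16 of the 38 members (42.1%), about the rate of the other libraries, where 402 of 912 library and miRNA pairs (44.1%) were highest. By RPM coconut was highest for 5 (13.2%), against 413 of the 912 pairs (45.3%). The 5 were bdi-MIR-162, mtr-MIR-171e-3p, ptc-MIR-396g-5p, gma-MIR-167g and osa-MIR-2118n. For gma-MIR-167g and osa-MIR-2118n this follows from their being listed in coconut alone, and ptc-MIR-396g-5p rests on 7 reads. bdi-MIR-162 was 1.17 times the ginger RPM with an exact interval of 0.711–2.03, so in RPM these 2 libraries were not distinguishable by counting error.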

How the data were processed

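Small RNA from ELNs was size-selected on a gel and sequenced on an Illumina HiSeq, 1 library per plant. After read filtering the authors used MIRPIPE, with up to 2 mismatches allowed, to match reads to the mature plant sequences of miRBase, and deposited levels in RPM. The authors' table lists each miRNA with its RPM value and most abundant sequence in each library, and the 11 single-library files hold the same values. The miRBase sequences listed there served as references.

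RPM values of each library were whole multiples of 1 step within 0.01 of a read, which gave the read counts. Shares were taken of the summed level. Intervals (95%) were exact Poisson for RPM, exact conditional binomial for ratios and Wilson for shares. With 1 library per plant no test was made, and a ratio past 4-fold was called. Families are names with the same number. Mismatches were counted by sliding the listed sequence along its reference without gaps. All 38 coconut members are named. Other miRNAs named are of the same families or sequences, except peu-MIR-2916, osa-MIR-5077 and MIR-403, whose families coconut does not list. The members, the 11 fragment-like names, the target groups and the 8 monocot codes were chosen with earlier results of these data known. Alternatives were at least 10 reads, 18 nt or more, no fragment-like names, at most 2 mismatches, a common floor, families, identical sequences, RPM, 2-fold, and each miRNA counted once. The steps were tested on simulated data. Scripts ran in Python 3.11.15 with scipy 1.17.1, pandas 2.3.3, numpy 2.4.6 and matplotlib 3.10.9.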

Additional observations from a re-analysis of the deposited data

How the results depend on the processing

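Of 47 values recomputed under the alternatives for the main results, 29 were counted as kept and 18 as moved. A kept value could still change. Members listed fell from 38 to 27 at 18 nt or more, and names shared with ginger from 15 to 10 at a common floor. The ratio calls by RPM also counted as kept, at 11 against 8. Their direction turned, from 6 higher and 2 lower by share to 1 higher and 10 lower by RPM. With listed sequences of 18 nt or more, the MIR-5054 share was 0%, the fragment-like share 3.07%, the HD-ZIP III share 20.7%, the T-first share 89.8%, the monocot-code share 18.7%, the names shared with ginger 8 and the ratio calls 4, since the names under 18 nt are dropped. Without fragment-like names the HD-ZIP III share was 18.03%, the 20 to 22 nt share 84.5%, the T-first share 89.1%, the monocot-code share 17.8%, the names shared with ginger 9 and the ratio calls 4. Counted by families, 25 were listed. With each miRNA counted once, the shares were 71.1% for 20 to 22 nt, 63.2% for T first and 26.3% for monocot codes. By RPM coconut was highest for 5 members, and the coconut over ginger ratio turned to 0.369 for aly-MIR-166h-3p, 0.323 for ppt-MIR-894, 0.261 for cpa-MIR-8155 and 0.170 for mtr-MIR-168c-3p. These are set by the lower miRNA content of the coconut library, which enters RPM and not shares. At 10 reads or more 31 members were listed, and within 2 mismatches, counted without gaps, 36. With 1 library a plant, differences between plants and between preparations of 1 plant cannot be told apart, and ratios on fewer than 20 reads have wide intervals. No paired analysis was possible because each plant has 1 library.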

Other observations

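Several coconut members on few reads carry a sequence that is abundant in another library. mtr-MIR-396a-5p had 19.4 RPM (13.1–27.7) in coconut and 28650 RPM in kiwifruit, and mtr-MIR-162 had 3.88 RPM in coconut and 3116 RPM in kiwifruit. gma-MIR-482d-3p had 7.77 RPM in coconut and 39484 RPM in soybean, and vvi-MIR-319e had 5.18 RPM in coconut and 5655 RPM in pea. Their coconut sequences were identical to those listed in 5 to 8 other libraries. These members were chosen after their values were seen, and the source of their reads was not tested.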
